A study of Mus musculus with 2 samples.

Results

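To relate Tbx3 promoter activity to the keratin make-up of luminal mammary cells, all keratin genes with a value were compared between the Venus High and the Venus Low cells of the luminal layer. Members were the genes whose probe sets are paired with a single symbol made of Krt, a number and at most 1 letter, which leaves out the keratin-associated proteins of hair. This gave 39 genes, read by 46 probe sets, of 13869 genes in all. Both populations came from the same pool of mammary epithelial cells of 3 adult virgin female mice on an FVB background, 5 months old. All mice were Tbx3-Venus-KI heterozygotes, in which the fluorescent protein Venus sits at the start codon of 1 Tbx3 allele and is driven by the Tbx3 locus, so both populations carry 1 intact Tbx3 allele. After exclusion of dead cells, CD45+ cells and stromal cells, luminal cells were gated on CD24 and CD49f and split by Venus fluorescence into 200000 Venus High and 200000 Venus Low cells. Each population was measured on 1 GeneChip Mouse Genome 430 2.0 array from 250 ng of RNA with an integrity number above 9.4.

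Keratins are the intermediate filament proteins of epithelial cells. A filament needs a type I and a type II keratin, which pair as a heterodimer, and each epithelium is known by the pairs it makes. Luminal mammary cells are known for the simple epithelial keratins Krt8, Krt18, Krt19 and Krt7, and basal myoepithelial cells for Krt5 and Krt14. Other members belong to stratified epithelia, to wounded or stressed epithelium (Krt6a, Krt6b, Krt16, Krt17) or to the hair follicle. In the mouse nearly all type II genes lie side by side on chromosome 15 and nearly all type I genes on chromosome 11.

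With 1 array per population there is no replicate check, no p-value was computed, and precision is limited by there being so few arrays. The values are log2 array signals with a floor at a signal of 10, or 3.32 on the log2 scale. Where Venus Low cells sat at the floor, the fold difference is a lower bound, and where both populations did, no difference can be given. For each gene the probe set with the greatest log2 value averaged over both arrays was taken. A gene was counted as 4-fold higher when its log2 difference, Venus High minus Venus Low, was at least 2 and its signal reached 100 on at least 1 array. The table used here holds 0 probe sets with the lower value in Venus High cells, so no keratin could be found lower, and a difference above 0 carries no information by its sign alone. Another 15 keratin genes of the RefSeq annotation, among them Krt5, Krt10, Krt18 and Krt23, are not analysed here. Levels of different genes come from different probes and were not set against each other. In sorted pools, fewer cells that use a gene and less of its RNA per cell cannot be told apart.

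The sort and the tissue were checked on Tbx3 and on marker genes. Tbx3 had a log2 signal of 8.72 in Venus High cells against 3.62 in Venus Low cells. Of the 9 markers listed for luminal cells in general, 4 have a value (Krt8, Krt19, Cd24a and Cdh1), and all 4 reached a signal of 100. Keratins among the markers are Krt8 and Krt19 here and Krt14, Krt1 and Krt2 in the lists below. They also belong to the keratin set, so they are no separate check of it. Of the 7 markers listed for hormone-sensing luminal cells, 5 have a value (Pgr, Foxa1, Prom1, Cited1 and Esr1). Each of the 5 met the 4-fold rule for Venus High cells, beside 2.38% of all 13869 genes. As no probe set used here is lower in Venus High cells, a marker going the other way could not have shown. Pgr, the progesterone receptor, had 11.93 in Venus High cells against 5.05 in Venus Low cells, and Esr1, the estrogen receptor, had 10.62 in Venus High cells against 7.64 in Venus Low cells. The summed signal of the 5 was 14821 in Venus High cells against 510 in Venus Low cells. These 5 markers and the keratins described below were read on the same pair of arrays, which cannot show that they vary together. The part of cell type make-up in the keratin differences was not tested. The 7 listed markers of alveolar progenitors are not analysed here.

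Of the 9 markers listed for basal myoepithelial cells, 5 have a value (Krt14, Acta2, Cnn1, Myh11 and Trp63), and all 5 read the floor in both populations. A marker lower in Venus High cells could not have shown, here or in the next lists. Floor readings on these probe sets therefore do not tell whether such cells were absent. Of 12 markers of epidermal keratinocytes, 10 have a value and 7 of these were at the floor on both arrays. Their summed signal was 180 in Venus High cells against 154 in Venus Low cells, with a floor of 10 for each gene, and Casp14 had the highest signal among them, 68.8 in Venus High cells against 61.7 in Venus Low cells. Of 8 leukocyte markers, 5 have a value, and all 5 were at the floor on both arrays. Of 5 stromal markers with a value, 0 reached a signal of 100, and their summed signal was 110 in Venus High cells against 72.5 in Venus Low cells. Most of that gap came from Dcn, a matrix proteoglycan, with a linear signal of 64.6 in Venus High cells against 29.7 in Venus Low cells, and its part in the keratin differences was not tested. Of 3 endothelial markers with a value, 0 reached a signal of 100.

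Among the 39 keratins, 7 were counted as 4-fold higher in Venus High cells: Krt6a, Krt4, Krt77, Krt7, Krt79, Krt78 and Krt16. A further 3, Krt19, Krt80 and Krt8, reached a signal of 100 and differed by less than 2-fold. Another 9 lay above the floor but below a signal of 100, and 20 read the floor in both populations, as did 6691 of all 13869 genes. A signal of 100 was reached by 25.6% of the keratins and by 27.7% of all genes. The 7 of 39 keratins stand beside 2.38% of all 13869 genes that were counted by the same rule. Among genes that reached a signal of 100 the 7 of 10 keratins stand beside 8.58% of 3847 genes, but such a gene can have passed the minimum only through the population in which it is high. The median log2 difference of the 10 keratins was 2.99, against 0.46 for the 3847 genes, and both medians lie above 0 by construction of the table. With the floor at a signal of 100 these medians were 1.23 for the keratins and 0.39 for the genes.

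**Figure D1:**
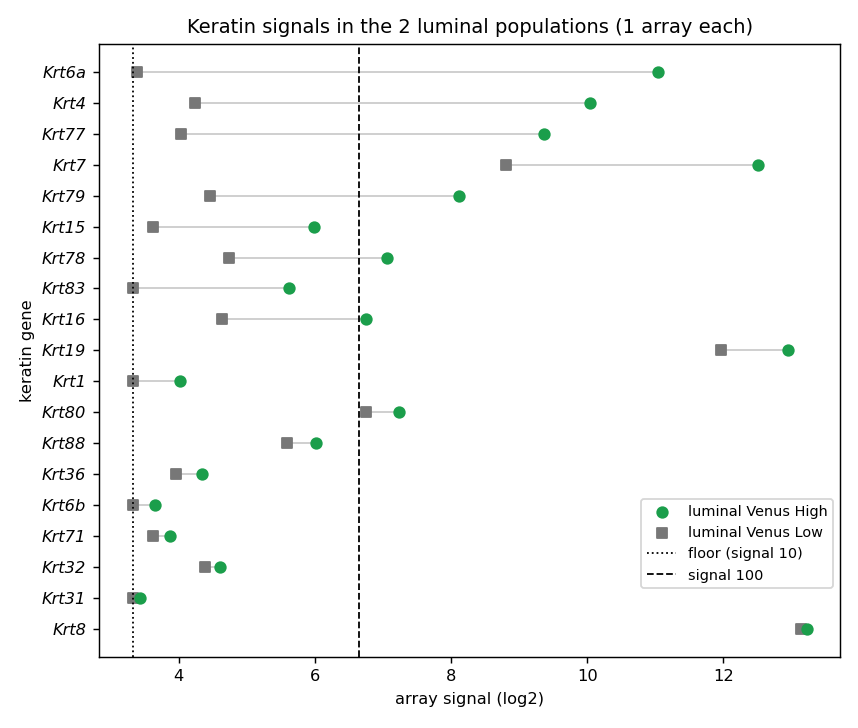
Array signal (log2, horizontal axis) of the 19 keratin genes above the floor on at least 1 array. Green circles are Venus High cells and grey squares Venus Low cells of the luminal layer, from 1 array each. The dotted line marks the floor and the dashed line a signal of 100. Krt6a has the widest gap, and both values of Krt8 lie close together at the right.

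For 4 of the 7 genes counted as higher, RefSeq promoter windows were at hand (build GRCm38.p6), and 24 of the 39 keratins matched a window. The 250 bases before each transcription start are given for these 4, because they stand together in the comparison, and for Krt8, a type II gene of the same cluster whose signal differed little. Krt78 spans bases 101946001 to 101996624 in RefSeq, so its window precedes a start inside that span. Capitals mark the letters AGGTGT, the core of the site bound by T-box factors such as Tbx3, on either strand.
Krt7, chr15:101412153-101412402, plus strand: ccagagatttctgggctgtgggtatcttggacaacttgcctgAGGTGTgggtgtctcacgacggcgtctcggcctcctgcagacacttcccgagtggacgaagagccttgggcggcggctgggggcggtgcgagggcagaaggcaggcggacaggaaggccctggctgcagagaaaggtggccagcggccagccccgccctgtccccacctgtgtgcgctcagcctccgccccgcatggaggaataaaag
Krt77, chr15:101869706-101869955, minus strand: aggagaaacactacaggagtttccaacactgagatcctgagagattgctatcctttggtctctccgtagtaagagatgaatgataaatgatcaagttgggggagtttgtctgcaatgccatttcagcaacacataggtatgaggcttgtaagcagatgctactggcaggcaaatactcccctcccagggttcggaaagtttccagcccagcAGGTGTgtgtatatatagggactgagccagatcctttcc
Krt79, chr15:101940325-101940574, minus strand: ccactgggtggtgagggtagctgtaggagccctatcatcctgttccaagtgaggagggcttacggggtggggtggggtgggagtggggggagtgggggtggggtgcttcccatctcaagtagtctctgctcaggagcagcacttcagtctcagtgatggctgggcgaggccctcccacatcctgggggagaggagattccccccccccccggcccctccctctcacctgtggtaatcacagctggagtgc
Krt78, chr15:101954288-101954537, minus strand: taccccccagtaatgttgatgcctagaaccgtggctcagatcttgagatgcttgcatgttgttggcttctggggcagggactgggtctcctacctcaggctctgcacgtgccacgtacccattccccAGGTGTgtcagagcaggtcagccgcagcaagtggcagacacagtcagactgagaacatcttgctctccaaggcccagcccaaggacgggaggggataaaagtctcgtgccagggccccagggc
Krt8, chr15:102004343-102004592, minus strand: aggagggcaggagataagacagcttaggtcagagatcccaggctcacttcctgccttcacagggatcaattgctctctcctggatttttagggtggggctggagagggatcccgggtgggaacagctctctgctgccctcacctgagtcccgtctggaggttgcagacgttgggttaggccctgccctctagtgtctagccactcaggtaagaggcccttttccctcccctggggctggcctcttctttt

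The letters AGGTGT occurred in the windows of Krt7, Krt77 and Krt78, which is 3 of the 4 windows of genes counted as higher, and in 1 of the 21 other keratin windows, that of Krt2. They occurred in 11.8% of all 32851 windows of this length. In Krt7 the match began at base -208 from the start, in Krt78 at base -123 and in Krt77 at base -39. The TATA box letters TATAAA were in 0 of these 4 windows, in 12 of the 21 others and in 12.4% of all windows. Only these exact letters were counted, at any place in the window. Variants were not, such as tatatata in the window of Krt77, so the counts do not tell which genes have a TATA box. The estrogen response element, GGTCA and TGACC with 3 bases between, was in 0 of the 25 keratin windows and in 0.0639% of all windows. The AP-1 letters TGANTCA were in 0 of the 4 windows, in 2 of the 21 others, both of Krt13, and in 6.75% of all windows. The progesterone response half-site TGTTCT was in the window of Krt78 alone among the 4, in 4 of the 21 others and in 16.1% of all windows. All 5 motifs were searched on both strands and were chosen after the windows had been seen. A match describes the sequence and is not evidence of binding.

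The simple epithelial keratins, which make the filaments of luminal cells, differed unequally. Krt8, the type II keratin present in all luminal cells, had a log2 signal of 13.22 in Venus High cells against 13.13 in Venus Low cells, a difference of 0.09. These are the highest values of the table on both arrays. As every unequal probe set of the table is higher in Venus High cells, the sign of this small difference is not a result. Krt8 has a single probe set, whose ending _x_at denotes probes that can match other transcripts. Without _x_at, _s_at and _a_at probe sets it has no value. Krt19, a type I partner of Krt8, had 12.94 in Venus High cells against 11.96 in Venus Low cells, which is 1.98-fold higher in Venus High cells, and its difference of 0.98 is 0.52 beyond the median of the 3847 genes with a signal of 100 or more. Krt7, the other type II keratin of simple epithelia, had 12.50 in Venus High cells against 8.80 in Venus Low cells, or linear signals of 5808 and 447. It was 13.0-fold higher in Venus High cells. Its Venus Low signal lies far above the floor, so the difference of 3.70 is the same with the floor at 100. Of the 4 keratins with a signal of at least 100 on both arrays, Krt7, Krt19, Krt80 and Krt8, Krt7 differed most. It has a single probe set, whose ending _a_at denotes several transcripts of 1 gene. Krt20, which is known from gut and bladder epithelium, read the floor in both populations.

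The wound and stress keratins held the largest difference of the family and 2 members near or at the floor. Krt6a, a type II keratin of wounded epidermis and of the companion layer of hair follicles, had a log2 signal of 11.04 in Venus High cells against 3.39 in Venus Low cells. The linear signals were 2108 and 10.5, so that Venus Low cells lay just above the floor. The ratio of 201 rests on a Venus Low signal that is hardly above the floor, so its size depends on where the floor was set. With the floor at 100 the log2 difference was 4.40. Krt6a ranked 7 among genes with a signal of 100 or more as deposited and 28 with the floor at 100. The other probe sets of Krt6a gave 9.47 in Venus High cells against the floor in Venus Low cells, at least 71.0-fold, and 9.32 in Venus High cells against 3.62 in Venus Low cells, 51.9-fold. On the linear scale the 3 probe sets of Krt6a read between 638 and 2108 in Venus High cells and between 10 and 12.3 in Venus Low cells. Krt6b, its close relative on the same chromosome, had 3.65 in Venus High cells and was at the floor in Venus Low cells. Krt16, the type I partner of Krt6a in stressed epidermis, had 6.75 in Venus High cells against 4.64 in Venus Low cells, linear signals of 108 and 24.9. It passed the signal minimum narrowly, and its difference of 2.12 was 0.11 with the floor at 100. Krt17, another type I partner of this class, read the floor in both populations, on the 1 probe set paired with it alone.

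Of the 10 keratins of stratified and mucosal epithelia with a value, 4 were counted as higher, as were 2 of the 4 wound and stress keratins, beside 2.38% of all genes. Krt4, a type II keratin of the oesophagus and other wet stratified epithelia, had a log2 signal of 10.05 in Venus High cells against 4.23 in Venus Low cells, a 56.3-fold difference. That probe set ends in _x_at, which denotes probes that can match other transcripts. A second Krt4 probe set without this ending had 8.06 in Venus High cells and was at the floor in Venus Low cells, at least 26.7-fold. With the floor at 100 the differences of the 2 probe sets were 3.40 and 1.42. Krt13, the type I partner of Krt4 in those epithelia, read the floor in both populations with all 3 of its probe sets. No difference can therefore be given for Krt13 to set beside that of Krt4.

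Krt77, a type II keratin closely related to Krt1 and known in humans from sweat gland ducts, had a log2 signal of 9.36 in Venus High cells against 4.04 in Venus Low cells, a 40.1-fold difference. At a floor of 100 this was 2.72 log2 units. Krt79, a type II keratin of the hair canal and sebaceous ducts, had 8.12 in Venus High cells against 4.46 in Venus Low cells, a 12.6-fold difference, or 1.48 log2 units at a floor of 100. Krt78 had 7.06 in Venus High cells against 4.74 in Venus Low cells, a 5.00-fold difference, which shrank to 0.41 log2 units at a floor of 100. Each of these 3 genes has 1 probe set in the table. Krt80, a type II keratin that is made in many epithelia, had 7.24 in Venus High cells against 6.75 in Venus Low cells, a difference of 0.49, near the median of 0.46 of the 3847 genes with a signal of 100 or more. Krt1, a type II keratin of the suprabasal epidermis, had 4.02 in Venus High cells and was at the floor in Venus Low cells. Krt2, Krt12, Krt13 and Krt24 read the floor in both populations.

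**Figure D2:**
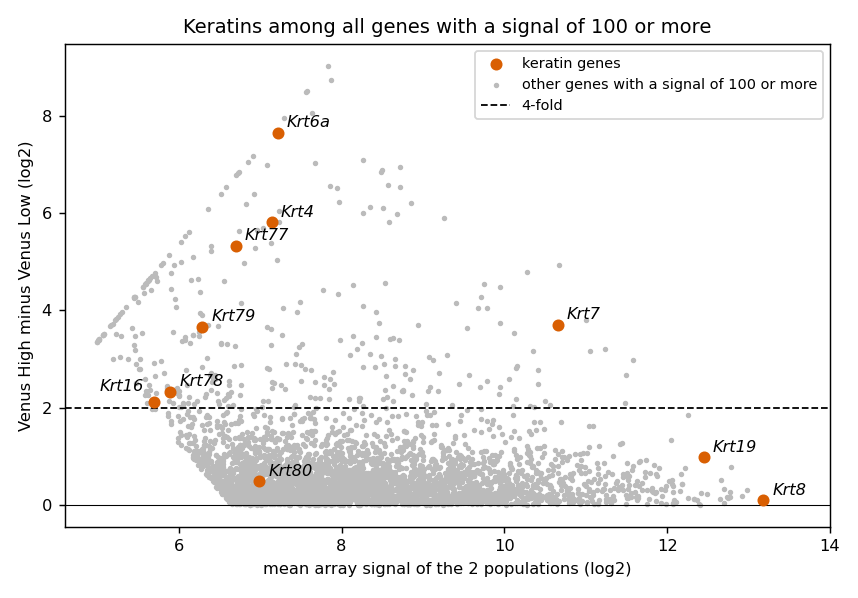
Log2 difference, Venus High minus Venus Low (vertical axis), against the mean log2 signal of the 2 arrays (horizontal axis) for the 10 keratin genes (orange) and all other genes (grey) with a signal of 100 or more. Krt6a lies near the top, Krt7 lies above the 4-fold line at a high mean signal, and Krt8 and Krt80 lie close to 0; no gene lies below 0 because the table holds none.

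In all, 6 of the 7 keratins counted as higher had a Venus Low signal between 10.5 and 26.7, where the floor is 10, and Krt7 was the exception. None of the 7 was at the floor in Venus Low cells. With the floor at 100, Krt6a, Krt7, Krt4 and Krt77 still differed by at least 4-fold, beside 4.42% of 3849 genes with a signal of 100 or more.

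**Figure D3:**
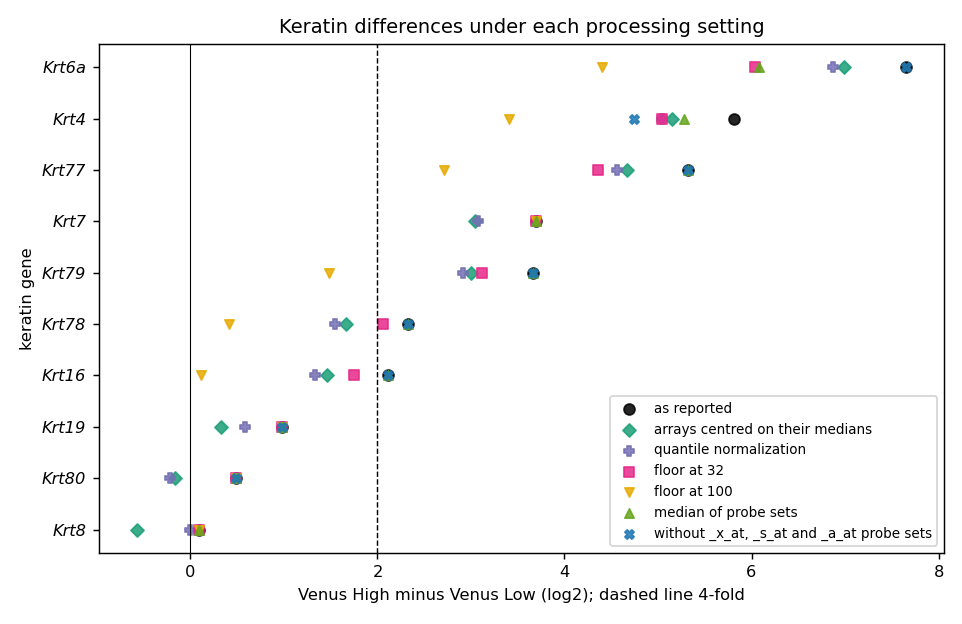
Log2 difference, Venus High minus Venus Low (horizontal axis), of the 10 keratin genes with a signal of 100 or more (vertical axis) as reported (black circles) and under 6 other processing settings (coloured symbols), with the dashed line at 4-fold. Krt6a, Krt4, Krt77 and Krt7 lie right of the line wherever they have a value (Krt7 has none without _x_at, _s_at and _a_at probe sets), while Krt78 and Krt16 lie left of it when the arrays are rescaled or the floor is 100, and Krt16 also when the floor is 32.

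Where several probe sets read 1 gene, their log2 differences disagreed by a pooled SD of 0.31, taken over 1062 genes at or above a signal of 100. It covers probe sets on 1 pair of arrays and not the spread between animals or sorts, so a difference larger than it is not shown to exceed the error between samples.

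Keratins of the basal layer had low values on the probe sets used here. Krt14, the type I keratin of basal cells, was at the floor on both arrays, and its partner Krt5 is not analysed here. Krt15, a type I keratin of basal and stem cells in skin, had a log2 signal of 5.99 in Venus High cells against 3.62 in Venus Low cells. Its difference of 2.37 was larger than that of Krt78, but its signal of 63.4 in Venus High cells was below the minimum. The hair shaft keratin Krt83 had 5.63 in Venus High cells and was at the floor in Venus Low cells, at least 4.94-fold, again below the minimum. The other 7 keratins that lay between the floor and a signal of 100 differed by less than 1 log2 unit. They were Krt1, Krt6b, Krt88, Krt36, Krt71, Krt32 and Krt31, with linear signals of at most 64.4. Krt88 had 6.01 in Venus High cells against 5.59 in Venus Low cells, and Krt36 had 4.34 in Venus High cells against 3.96 in Venus Low cells. Krt32 had 4.61 in Venus High cells against 4.39 in Venus Low cells, and Krt31 had 3.44 in Venus High cells and the floor in Venus Low cells.

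The listed hair follicle keratins lay at or near the floor. Of 9 hair shaft keratins with a value, 5 were at the floor on both arrays (Krt33a, Krt33b, Krt35, Krt82 and Krt86) and 0 reached a signal of 100. Of the 8 other listed hair follicle keratins with a value, 7 were at the floor on both arrays (Krt25, Krt26, Krt27, Krt28, Krt72, Krt73 and Krt75). Krt71 had 3.88 in Venus High cells against 3.62 in Venus Low cells. Krt222, a keratin-like gene, read the floor in both populations with both of its probe sets. These floor readings hold for the probe sets used here and not for any others of the same genes.

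By filament type, 6 of the 19 type II keratins with a value and 1 of the 20 type I keratins were counted as higher in Venus High cells, beside 2.38% of all genes. A signal of 100 was reached by 8 type II and by 2 type I keratins, and 1 of 20 is near the share over all genes. Of the 7 genes counted, 6 had a Venus Low signal between 10.5 and 26.7, so they reached 100 through Venus High cells alone. Reaching that signal is thus part of the count and gives no separate reason for the contrast by type. The floor was read in both populations for 6 type II and 14 type I genes, beside 6691 of all 13869 genes. Along chromosome 15, Krt77, Krt4, Krt79 and Krt78 stand in this order with Krt76, which is not analysed here, between Krt77 and Krt4. They are followed by Krt8, with its difference of 0.09, and on the other side by Krt1, at 4.02 in Venus High cells and the floor in Venus Low cells. Krt6a lies between Krt6b and Krt5, and Krt7 lies between Krt80 and Krt87. On chromosome 11, Krt15 and Krt19 are neighbours, and Krt16 lies between Krt14 and Krt17, both at the floor. Of the 137 genes on chromosome 15 other than keratins that reached a signal of 100, 14 were counted as higher, which is 10.2%. For chromosome 11 this was 18 of 350 genes, or 5.14%. Among the 10 protein-coding genes on each side of the chromosome 15 cluster, 12 have a value, 5 reached a signal of 100 and 0 were counted as higher. The same counts for chromosome 11 were 14, 5 and 0. Beside the 8.58% of all genes with such a signal that were counted, 0 of 5 is no result about these neighbours.

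**Figure D4:**
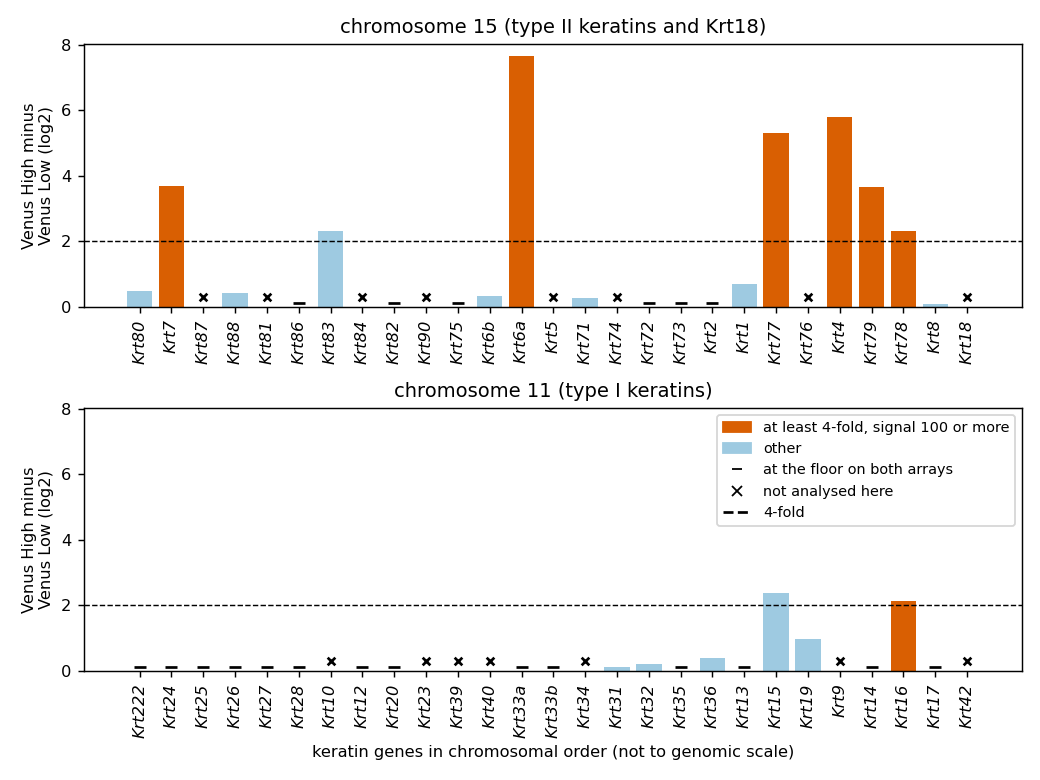
Log2 difference, Venus High minus Venus Low (vertical axis), of the keratin genes in their order along chromosomes 15 and 11 (horizontal axis, evenly spaced). Orange bars are genes counted as 4-fold higher, 6 on chromosome 15 and 1 on chromosome 11, blue bars are other genes above the floor, dashes mark genes at the floor on both arrays and crosses mark genes that are not analysed here.

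Genes that anchor or cross-link keratin filaments were compared in the same way. Of 14 listed, 10 have a value, 8 reached a signal of 100 and 0 were counted as 4-fold higher, with a median log2 difference of 0.48, close to the 0.46 of the 3847 genes with a signal of 100 or more. At the 8.58% of those genes counted as higher, 0 of 8 is no result about these genes. Dsp, the desmosomal protein that binds keratins, had a log2 signal of 11.26 in Venus High cells against 10.61 in Venus Low cells. Dst, which links keratins to hemidesmosomes, had 10.46 in Venus High cells against 8.96 in Venus Low cells. Plec, a cytolinker of intermediate filaments, had 10.22 in Venus High cells against 8.78 in Venus Low cells, a difference of 1.44. Eppk1, a plakin that binds keratins, had 8.80 in Venus High cells against 8.49 in Venus Low cells. Fam83h, Pkp2, Pkp4 and Ppl are not analysed here.

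Of 13 genes of the cornified envelope, the protein shell of differentiated keratinocytes, 11 have a value and 7 read the floor in both populations. A signal of 100 was reached by 2, and 1 of the 11 was counted as higher, beside 2.38% of all genes. A single gene says little about the list. The gene counted was Sprr1a, a crosslinked precursor that is also made in stressed epithelia. It had a log2 signal of 9.57 in Venus High cells against 4.29 in Venus Low cells, a difference of 5.28, or 2.93 with the floor at 100. Its linear signal in Venus Low cells was 19.6, near the floor of 10. Tgm1, the enzyme that crosslinks the envelope, had 9.15 in Venus High cells against 8.20 in Venus Low cells. Ivl, Flg and Krtdap read the floor in both populations, and Lor had 4.67 in Venus High cells against 3.64 in Venus Low cells.

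Of 16 transcription factors known to control keratin genes, 7 have a value, 4 reached a signal of 100 and 0 were counted as higher, which is no result about them beside the 8.58% of all genes with such a signal. Klf4, a factor of epithelial barrier cells, had a log2 signal of 12.54 in Venus High cells against 12.30 in Venus Low cells. Gata3, a factor of luminal mammary identity, had 10.28 in Venus High cells against 9.44 in Venus Low cells, the largest difference of the 4 at 0.84. Nfe2l2, an activator of stress genes, had 9.59 in Venus High cells against 9.35 in Venus Low cells. Elf3, an epithelial ETS factor, had 9.34 in Venus High cells against 8.91 in Venus Low cells. Trp63, which encodes the basal factor p63, read the floor in both populations.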

How the data were processed

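Each of the 2 sorted populations was measured on 1 array. The deposited values are log2 signals: the authors took logs, and BRB Array software then did the normalization and centring by sample, while MAS5 appears in the submitters' processing notes. No source used here gives the factor of that scaling, and whether the arrays share a scale stays unknown. The median over all 29338 probe sets was 3.32 on both arrays, which is the floor, with 16370 probe sets at it in Venus High cells against 18543 in Venus Low cells. For the 5889 probe sets at or above 100 the medians were 8.21 for the Venus High and 7.55 for the Venus Low array.

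Gene names of probe sets came from the platform annotation (22223 with 1 gene symbol, 602 with several, 6513 with none), updated by gene identifier to RefSeq symbols of GRCm38.p6, which changed 0 keratin symbols. A probe set shared by Krt14 and Krt17 was left out. Promoter windows and gene order came from the same RefSeq build. Named were all keratins, with values by class, and up to 4 members of each other list with the highest signal, beside others chosen after their values were seen. The members and lists were chosen with earlier results of these data known. Alternatives were other scalings, floors, probe set rules, signal minimums and fold thresholds. Computation used Python 3.11.15, numpy 2.4.6, pandas 2.3.3 and matplotlib 3.10.9 and was tested on simulated data.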

Additional observations from a re-analysis of the deposited data

How the results depend on the processing

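Krt6a, Krt4 and Krt77 were counted as 4-fold higher in Venus High cells under the reported setting and all 11 alternatives. Krt7 and Krt79 missed 1 alternative each, Krt7 because it has no probe set left without _x_at, _s_at and _a_at endings, and Krt79 with the floor at 100. Krt78 was counted in 7 and Krt16 in 6 of the 12 settings. The count of 7 keratins was 4 with the floor at 100 and between 5 and 9 otherwise. The median log2 difference of 2.99 was 2.59 with the floor at 32, 1.23 with the floor at 100, 2.34 with a signal minimum of 50, 3.70 with 200 and 0 with none, since 20 genes are at the floor. Over all genes, the 330 counted as higher were 204 after centring on medians, 196 after quantile normalization, 170 with the floor at 100, 831 at 2-fold and 183 at 8-fold. Centring lowers every difference by 0.66, in a table without probe sets lower in Venus High cells, so signs turned and calls lost on rescaling say little about a single gene. No paired analysis was possible because each population has 1 array, and no array could be left out for the same reason. The array signal limits Krt16, Krt78, Krt15 and Krt83, which lie near or below the minimum.

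Krt6a differed by 4.40 to 7.65 on the log2 scale over the settings in which 1 choice of scaling, floor or probe set was changed, and Krt7 by 3.04 to 3.70.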

Other observations

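The keratin-associated proteins, which crosslink keratins in the hair shaft, were nearly all at the floor. Of 33 such genes with a value, 30 read the floor in both populations and 0 reached a signal of 100. The 3 others were Krtap12-1, with log2 signals of 5.69 in Venus High cells against 4.37 in Venus Low cells, Krtap10-4, with 5.21 in Venus High cells against 4.64 in Venus Low cells, and Krtap3-1, with 3.40 in Venus High cells and the floor in Venus Low cells. These 3 were chosen after their values were seen.

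Of 16 other intermediate filament genes, 12 have a value and 9 of these were at the floor on both arrays, among them Nes, Gfap, Prph and the neurofilament genes Nefl, Nefm and Nefh. Lmna, which encodes the nuclear lamins A and C, was the 1 member that reached a signal of 100, with log2 signals of 6.98 in Venus High cells against 6.54 in Venus Low cells. Lmnb2 had 5.26 in Venus High cells against 4.76 in Venus Low cells, and Des had 3.88 in Venus High cells against 3.72 in Venus Low cells. Vim, Synm and Lmnb1 are not analysed here.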
